A study of Homo sapiens with 6 samples.

Results

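The genes described here encode the subunits of the nuclear RNA polymerases I, II and III, measured as mRNA in Ovcar8 cells, a long-established human line from a high-grade serous cancer of the ovary. They were taken by name, as every protein-coding gene of the deposited count table whose symbol runs from POLR1A to POLR1L, POLR2A to POLR2L or POLR3A to POLR3L with any suffix. The rule gave 30 genes out of 58735 in the table, of which 19951 are protein coding. Of the 30, 3 belong to Pol I alone, 2 are shared by Pol I and Pol III, 5 are shared by all 3 polymerases, 10 belong to Pol II alone and 10 to Pol III alone. One group of 3 libraries came from cells left without serum for 48 h (serum-starved), and the other group of 3 from cells kept for 48 h with 5% FBS (fetal bovine serum, which supplies growth factors), in RPMI-1640 medium. The comparison asked whether the polymerase mRNAs differ after withdrawal of serum. Nothing in the labels tells whether libraries of 1 group stem from different cultures. The p-values therefore rest on the spread between these libraries, which may be technical. RNA was measured in bulk, so a change in every cell and a change in some of the cells cannot be told apart.

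RNA polymerase I transcribes the large ribosomal RNA precursor in the nucleolus, and RNA polymerase II transcribes messenger RNAs. RNA polymerase III transcribes transfer RNAs, the smallest of the ribosomal RNAs and other short RNAs. Each enzyme is built around its own pair of large catalytic subunits, to which smaller subunits are added, some of them common to several enzymes. Pol I and Pol III activity is known to follow growth signals such as serum, largely through initiation factors and the repressor MAF1, and the mRNA level of a subunit is not a measure of that activity.

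The libraries held 17288356, 18201183 and 19558484 counts assigned to genes in serum-starved replicates 1, 2 and 3, against 17882533, 17292872 and 16379416 in the libraries with FBS. Levels are given as CPM (counts relative to library size) after TMM scaling, in the order of the replicates 1, 2 and 3, and a log2 fold change is serum-starved over FBS. The limit that a count of 0 allows, 3 counts, corresponded to 0.132 to 0.204 CPM, which covers counting error only. Among 12 markers of high-grade serous carcinoma, PAX8, KRT7, KRT8 and KRT18 were abundant, with PAX8 at 59.4 to 86.1 CPM, while MUC16 and SOX17 had no count in any library and WT1, EPCAM, KRT19 and CDH1 stayed under 4 CPM. Of 13 markers of other cell types, 5 had no count in any library and 3 passed the low-count filter. Their summed level was 767 to 835 CPM in serum-starved libraries and 320 to 580 CPM in libraries with FBS, nearly all of it from the collagen gene COL1A1. Whether the COL1A1 difference has a part in the results below was not tested.

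None of the polymerase subunit mRNAs passed the test between serum-starved cells and cells with FBS. Of the 30 genes, 27 had enough counts to be tested. With edgeR's quasi-likelihood test, Benjamini-Hochberg adjusted over 13772 genes at a threshold of 0.05, 0 of the 27 passed, against 39 of all genes tested (0.283%). With DESeq2 1 subunit passed, POLR3G, and with limma-voom 0. At an unadjusted p under 0.05 there were 3 of 27 subunits, POLR2F, POLR3G and POLR3K, which is 11.1% of them, against 10.4% of all genes. All 3 were lower in serum-starved cells, and 4.37% of all genes were lower at that p. The log2 fold change was below 0 for 21 of the 27 (77.8%), against 51.5% of all genes, and the median over the subunits was -0.27, against -0.02 over all genes tested. The serum-starved libraries lay entirely below those with FBS for 4 subunits, POLR2B, POLR2F, POLR3G and POLR3K, which is 14.8% of the 27 against 7.65% of all genes, and entirely above for 1, POLR1A, as for 1383 of the 13772 genes. Both directions together gave 5 of 27 (18.5%), against 17.7% of all genes. A subunit that did not pass may still have changed, since the spread between libraries was wide (biological coefficient of variation 36.3% over all genes).

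**Figure D1:**
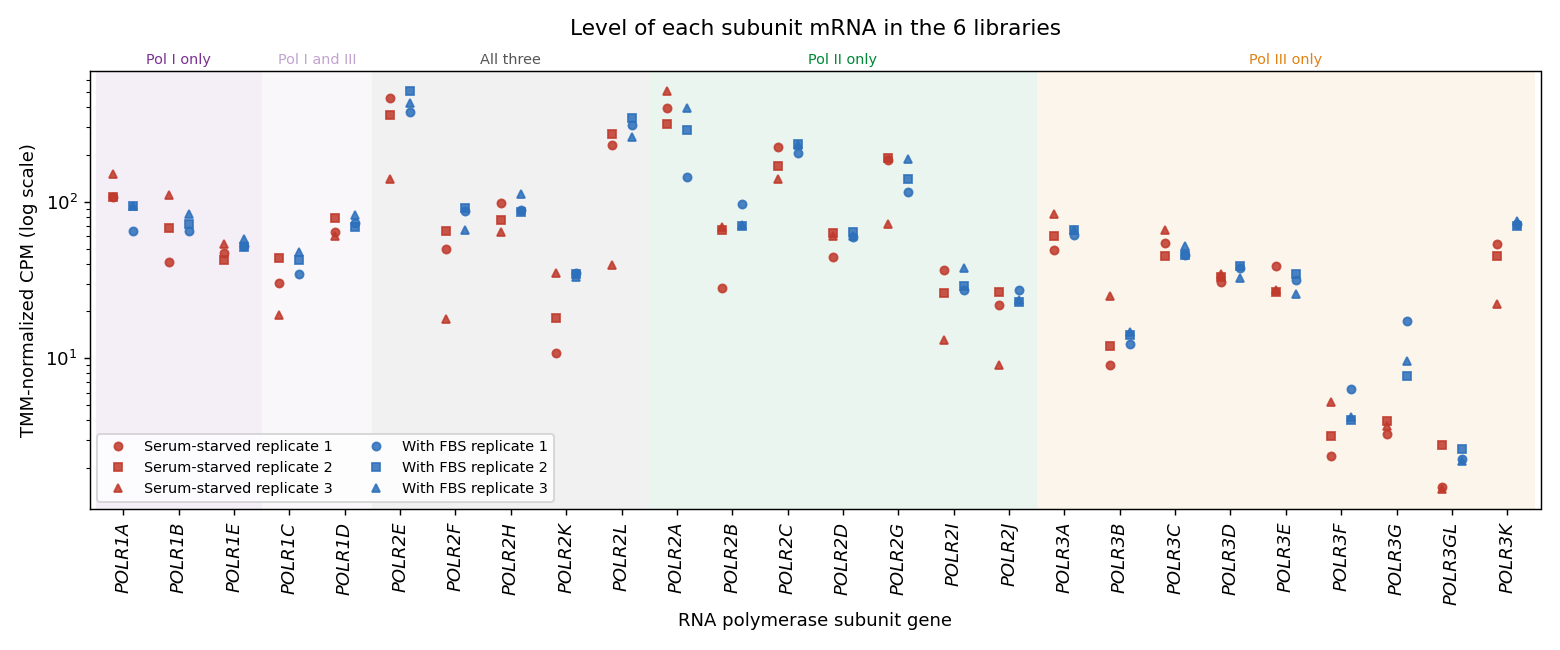
TMM-normalized CPM of 26 tested subunit genes (log axis) in each of the 3 serum-starved libraries (red, left of each gene) and the 3 libraries with FBS (blue, right), with shaded blocks for the polymerase each subunit belongs to. The groups overlap for 21 of these 26 genes, and serum-starved replicate 3 (red triangle) is the lowest of all 6 libraries for 12 of them.

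Grouped by enzyme, the median log2 fold change was -0.0042 over the 3 genes of Pol I alone, -0.28 over the 2 shared by Pol I and Pol III, and -0.69 over the 5 shared by all 3. It was -0.31 over the 7 tested genes of Pol II alone and -0.13 over the 10 of Pol III alone. When the shared subunits are counted with each enzyme they serve, the medians were -0.35 over 10 Pol I genes, -0.34 over 12 Pol II genes and -0.31 over 17 Pol III genes. These 3 medians share the same 5 genes, so they are not independent of each other. All values for Pol I here leave out 3 further subunits, listed under older symbols outside the naming rule. The log2 fold changes of those 3, given below, were -0.75, -0.96 and -0.75, so the medians here do not describe the whole of Pol I.

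**Figure D2:**
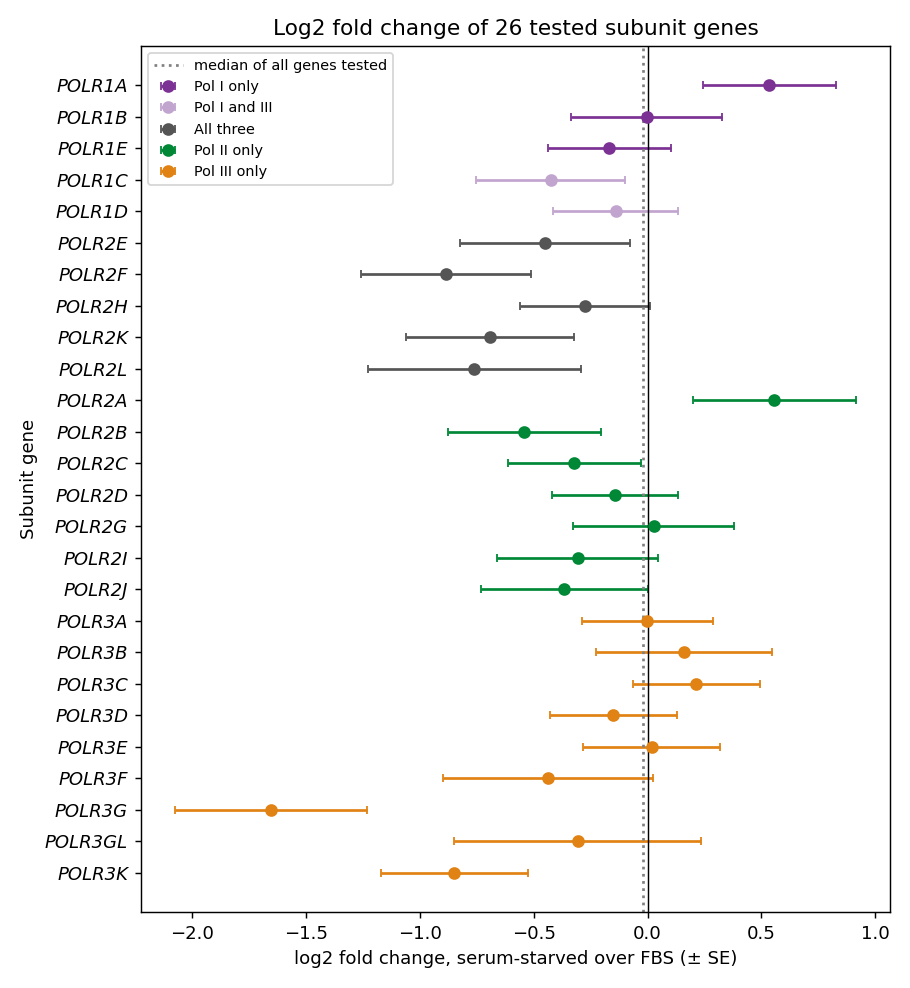
Log2 fold change (serum-starved over FBS) of 26 tested subunit genes, with bars of 1 SE, coloured by polymerase. The dotted line is the median of all genes tested (-0.02), and POLR3G (-1.66) is the lowest point while POLR1A (0.54) and POLR2A (0.56) are the highest.

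The groups did not overlap for 5 of 27 subunits (18.5%), a share near that of all genes (17.7%). None of these 5 genes passed edgeR's test. The set of 5 holds for levels without the GC and length correction given below, under which it changed. Of the 5, 4 have an entry in the RefSeq promoter table (GRCh38.p14), and the 250 bases before their start sites are printed. The windows are chr2:86105887-86106136 (minus strand) for POLR1A, the one gene of the 5 with higher values in serum-starved cells, chr4:56978646-56978895 (plus) for POLR2B, chr22:37953413-37953662 (plus) for the first of 2 POLR2F starts and chr16:53609-53858 (minus) for POLR3K. Capitals mark matches, on either strand, to any of 6 motifs, namely the E-box CACGTG, the GC box GGGCGG, the CCAAT box CCAAT, the NRF1 motif GCGCA-N-GCGC (N for any base), the ETS motif CCGGAAG and the TATA box TATAAA.
POLR1A: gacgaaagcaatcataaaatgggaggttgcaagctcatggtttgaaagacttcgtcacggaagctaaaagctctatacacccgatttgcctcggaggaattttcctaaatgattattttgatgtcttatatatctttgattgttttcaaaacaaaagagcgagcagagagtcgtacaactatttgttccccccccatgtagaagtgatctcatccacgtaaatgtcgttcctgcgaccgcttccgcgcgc
POLR2B: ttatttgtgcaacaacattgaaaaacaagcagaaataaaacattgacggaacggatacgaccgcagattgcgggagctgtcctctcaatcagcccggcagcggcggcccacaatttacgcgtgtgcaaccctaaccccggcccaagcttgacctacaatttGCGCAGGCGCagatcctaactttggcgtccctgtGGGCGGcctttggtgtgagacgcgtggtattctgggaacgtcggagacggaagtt
POLR2F: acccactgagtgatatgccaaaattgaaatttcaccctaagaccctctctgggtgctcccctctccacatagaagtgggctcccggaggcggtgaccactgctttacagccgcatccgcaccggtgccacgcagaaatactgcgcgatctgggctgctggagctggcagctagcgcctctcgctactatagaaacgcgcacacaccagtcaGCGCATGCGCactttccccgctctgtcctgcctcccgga
POLR3K: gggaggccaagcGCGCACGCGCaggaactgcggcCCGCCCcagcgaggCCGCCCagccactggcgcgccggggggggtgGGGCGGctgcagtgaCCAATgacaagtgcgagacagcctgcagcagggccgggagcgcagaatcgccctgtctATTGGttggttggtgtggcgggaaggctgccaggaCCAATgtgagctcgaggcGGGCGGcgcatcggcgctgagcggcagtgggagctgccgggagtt

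The POLR1A window held none of the 6 motifs. The POLR2B window held 1 GC box and 1 NRF1 motif, and the printed window of POLR2F held 1 NRF1 motif. The window of the other POLR2F start, chr22:37953449-37953698, is not printed and held 2 NRF1 motifs and 1 ETS motif. The POLR3K window held 4 GC boxes, 3 CCAAT boxes and 1 NRF1 motif. Across the subunits, 20 of 29 symbols had an entry, with 26 start sites between them, and POLR3G was among those without one. The GC box was present in 20 of the 26 windows (76.9%), against 42.6% of all 35116 promoters in the table. The NRF1 motif was present in 8 (30.8%) against 5.07%, and the ETS motif in 8 (30.8%) against 8.52%. The CCAAT box was in 5 windows (19.2%) against 32.0% of all promoters and the E-box in 2 (7.69%) against 6.34%, while the TATA box was in none of the 26 and in 10.7% of all. Both windows of POLR2F largely overlap and those of POLR3C share a few bases, so such windows are not independent. The windows of POLR1B, POLR1D, POLR2H and POLR3B do not overlap within the gene. A match describes the letters of the window, not binding.

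The subunits common to all 3 polymerases are POLR2E, which forms part of the jaw that holds downstream DNA, POLR2F, a small subunit needed for assembly, POLR2H, a small subunit with a nucleic acid binding fold, and the zinc-binding POLR2K and POLR2L. All 5 had a log2 fold change below 0, from -0.89 to -0.27, and none passed. POLR2F (ENSG00000100142, chr22:37952607-38041915, plus strand, GRCh38) was at 50.1, 64.5 and 17.9 CPM in serum-starved libraries and 86.7, 91.5 and 66.4 CPM in libraries with FBS. Its starved libraries all lay below, with replicate 3 far under the other 2. POLR2F had a log2 fold change of -0.89 (SE 0.37), with an unadjusted p of 0.0297 and an edgeR adjusted p of 0.418, and it was -0.51 without replicate 3. POLR2L (ENSG00000177700, chr11:837356-842545, minus strand) was at 230.1, 269.7 and 39.2 CPM without serum and 308, 345 and 261 CPM with FBS. Serum-starved replicate 3 again stood far below the rest, and starved replicate 2 lay above FBS replicate 3, so the groups overlapped. For POLR2L the log2 fold change was -0.76 (SE 0.47, edgeR adjusted p = 0.595) with all 6 libraries and -0.29 without that library.

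POLR2E also had its lowest value in that library, at 462, 357 and 139 CPM in serum-starved cells and 372, 508 and 428 CPM with FBS. Starved replicate 1 lay inside the range of the libraries with FBS, replicate 2 just under it and replicate 3 far below it (log2 fold change -0.45, edgeR adjusted p = 0.731). Without replicate 3 the log2 fold change of POLR2E was -0.09. POLR2K, the least GC-rich of the 30 genes at 36.4% GC, had its highest starved value there. POLR2K was at 10.8, 18.1 and 34.8 CPM without serum and 35.3, 34.6 and 33.1 CPM with FBS, so that starved replicates 1 and 2 lay well below and replicate 3 lay among the libraries with FBS. The log2 fold change of POLR2K was -0.69 (edgeR adjusted p = 0.536). Without serum-starved replicate 3 it was -1.25 and passed, at an edgeR adjusted p of 0.0330, in a fit in which 1.81% of all genes passed. POLR2H averaged 79.4 ± 17.3 CPM in serum-starved libraries and 95.9 ± 14.6 CPM with FBS (SD, n = 3 each), a log2 fold change of -0.27.

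Of the 3 genes of Pol I alone, POLR1A, its largest catalytic subunit, had higher values in serum-starved cells. POLR1A (ENSG00000068654, chr2:86020216-86106155, minus strand) was at 107, 108 and 151 CPM in serum-starved libraries and 65.0, 93.2 and 94.4 CPM with FBS. All 3 starved libraries lay above all 3 with FBS, and starved replicate 3 was the highest. Its log2 fold change was 0.54 (SE 0.29), which did not pass (unadjusted p = 0.0836, edgeR adjusted p = 0.543), and it ranged over 0.35 to 0.64 when single libraries were left out. POLR1B, the second largest subunit and the partner of POLR1A in the active centre, was at 41.4, 67.5 and 110.3 CPM without serum, the widest spread of the 3 genes of Pol I alone, and 64.9, 71.6 and 83.5 CPM with FBS. Its means were close, at 73.1 ± 34.8 CPM without serum and 73.4 ± 9.41 CPM with FBS (SD, n = 3 each), and its log2 fold change of -0.0042 turned positive, to 0.07, when libraries were scaled to total counts alone. POLR1E, which forms part of a heterodimer that aids initiation and elongation, averaged 47.9 ± 5.61 CPM in serum-starved cells and 53.8 ± 3.35 CPM with FBS (log2 fold change -0.17, edgeR adjusted p = 0.881).

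The 2 assembly subunits that Pol I shares with Pol III, POLR1C and POLR1D, form a heterodimer. POLR1C averaged 30.9 ± 12.3 CPM without serum and 41.5 ± 6.72 CPM with FBS, with starved replicate 3 the lowest of all 6 libraries (log2 fold change -0.43, edgeR adjusted p = 0.707). POLR1D averaged 67.9 ± 9.61 CPM without serum and 74.9 ± 6.68 CPM with FBS (log2 fold change -0.14). Both partners were below 0, and the groups overlapped for both. XPO5 and YIPF3 overlap the span of POLR1C on the other strand, from gene start to gene end. Overlap of exons was not examined. Because the sources used here do not say whether counting used strand, reads from any shared stretch cannot be told apart. The same holds for POLR2E with ARHGAP45, POLR2L with CD151, POLR2F with C22orf23, POLR2B with NOA1, POLR2C with DOK4, POLR2I with TBCB, POLR2J with LRWD1, POLR3F with DZANK1, POLR3G with MBLAC2 and POLR3K with SNRNP25.

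Pol I has 3 further subunits that the table lists under older symbols outside the naming rule. CD3EAP, the partner of POLR1E, was at 6.52, 6.70 and 5.24 CPM in serum-starved libraries and 11.2, 10.2 and 9.55 CPM with FBS. TWISTNB, a stalk subunit, was at 3.19, 4.23 and 5.81 CPM without serum and 12.8, 6.85 and 6.24 CPM with FBS. ZNRD1, a small zinc-binding subunit for RNA cleavage, averaged 22.1 ± 7.72 CPM without serum and 37.3 ± 6.36 CPM with FBS (SD, n = 3 each). Every starved library lay below every library with FBS for all 3 genes, against 7.65% of all genes tested, and none of the 3 passed. Their log2 fold changes were -0.75 for CD3EAP, -0.96 for TWISTNB and -0.75 for ZNRD1, with edgeR adjusted p of 0.502, 0.454 and 0.429.

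The catalytic pair of Pol II had log2 fold changes of opposite sign. POLR2A, the largest subunit, which carries the repeated carboxy-terminal domain (CTD) that is phosphorylated during transcription, is encoded by ENSG00000181222 on chr17:7484366-7514616, plus strand. It was at 397, 312 and 509 CPM in serum-starved libraries and 144, 289 and 395 CPM with FBS. The highest library was a starved one and the lowest was FBS replicate 1, with overlap in between (log2 fold change 0.56, SE 0.36, edgeR adjusted p = 0.622). Without FBS replicate 1 the log2 fold change of POLR2A was 0.24. POLR2B (ENSG00000047315, chr4:56977722-57031168, plus strand), the second largest subunit, was at 28.0, 66.0 and 69.1 CPM without serum and 96.8, 69.6 and 71.0 CPM with FBS. All 3 starved libraries lay below, but replicates 2 and 3 by little, and the log2 fold change of -0.54 (SE 0.34, edgeR adjusted p = 0.602) was -0.21 without starved replicate 1. Per length, the ratio of POLR2A to POLR2B in FPKM was 10.01, 3.34 and 5.20 in serum-starved libraries and 1.05, 2.93 and 3.92 with FBS, so replicate 1 had the highest ratio in one group and the lowest in the other. The same ratio for the Pol I pair, POLR1A to POLR1B, was 1.22, 0.748 and 0.639 without serum and 0.469, 0.609 and 0.529 with FBS, and that for the Pol III pair, POLR3A to POLR3B, was 2.98, 2.76 and 1.82 without serum and 2.72, 2.55 and 2.44 with FBS.

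The log2 fold changes of the other tested subunits of Pol II alone ran from -0.37 to 0.03. POLR2C, which pairs with POLR2J to start assembly of the enzyme, averaged 178 ± 43.1 CPM in serum-starved cells and 222 ± 15.9 CPM with FBS (SD, n = 3 each), and POLR2J averaged 19.1 ± 9.05 CPM in serum-starved cells and 24.6 ± 2.50 CPM with FBS. Their log2 fold changes were -0.32 and -0.37, and both were lowest in starved replicate 3. Without that library they were -0.18 for POLR2C and -0.03 for POLR2J. The stalk subunits POLR2D and POLR2G, which bind the emerging transcript, had log2 fold changes of -0.14 and 0.03. POLR2G was at 185, 191 and 72.0 CPM without serum and 115, 139 and 186 CPM with FBS, so the starved group held both the highest and the lowest of the 6 libraries, and the sign of its fold change turned with the scaling, to -0.01 with total counts alone. POLR2I, a small zinc-binding subunit that acts in transcript cleavage and fidelity, was at 36.8, 26.0 and 13.2 CPM without serum and 27.3, 28.7 and 37.8 CPM with FBS (log2 fold change -0.31, edgeR adjusted p = 0.820).

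POLR2J has recently duplicated relatives on the same chromosome, POLR2J2 and 2 genes both named POLR2J3, and these 3 were too low to be tested. POLR2J2 had 6, 3 and 0 counts in serum-starved libraries and 4, 1 and 1 with FBS. POLR2J3 (ENSG00000168255) had 3, 10 and 4 counts without serum and 11, 11 and 5 with FBS, and POLR2J3 (ENSG00000285437) had 1, 3 and 0 without serum against 1, 3 and 1 with FBS. Of the 50-base windows in POLR2J2 transcripts, 89.9% also occur in POLR2J3 and 17.7% in POLR2J, so reads may be split between these genes or lost, depending on how the authors counted reads with several matches. POLR2J itself had 205 to 540 counts per library.

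Pol III alone has 10 subunits, and its median log2 fold change of -0.13 came from 7 genes below 0 and 3 above. Its catalytic pair averaged nearly the same in both groups. POLR3A was at 49.4, 60.6 and 83.1 CPM in serum-starved libraries and 61.4, 66.0 and 65.9 CPM with FBS, with a log2 fold change of -0.000455 (SE 0.29) that was 0.04 with total counts alone and 0.0012 with the size factors of DESeq2. POLR3B was at 9.04, 11.97 and 24.8 CPM without serum and 12.3, 14.1 and 14.7 CPM with FBS, so that only starved replicate 3 lay above the libraries with FBS, and its log2 fold change of 0.16 was -0.38 without that library. In the heterodimer of POLR3D and POLR3E, which acts in initiation and termination, the log2 fold changes were -0.15 and 0.02. That of POLR3E was -0.01 with total counts alone.

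POLR3K (ENSG00000161980, chr16:46407-53628, minus strand), a small subunit for RNA cleavage and termination, was at 54.0, 44.9 and 22.3 CPM in serum-starved libraries and 72.0, 70.4 and 75.7 CPM with FBS. The 3 libraries with FBS lay close together, and all 3 starved libraries lay below them with a wider spread, replicate 3 the lowest. POLR3K had a log2 fold change of -0.85 (SE 0.32), with an unadjusted p of 0.0172 and an edgeR adjusted p of 0.362, and it was -0.56 without starved replicate 3. SNRNP25, which overlaps POLR3K on the other strand, had 3609, 3488 and 2397 counts without serum and 4885, 4705 and 4618 with FBS, the same order of the groups.

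The largest fold change among the tested subunits was that of POLR3G (ENSG00000113356, chr5:90471748-90514553, plus strand). Pol III takes either POLR3G or its paralog POLR3GL into the 3-subunit module with POLR3C and POLR3F that opens the promoter, and POLR3G is known as the form prominent in stem cells and many tumours, while POLR3GL is the form of most differentiated tissues. POLR3G was at 3.26, 3.95 and 3.70 CPM in serum-starved libraries and 17.2, 7.69 and 9.55 CPM with FBS, from 48, 72 and 84 counts without serum and 338, 129 and 147 counts with FBS. The 3 starved libraries lay close together and below all 3 with FBS, among which replicate 1 was far above the other 2. The log2 fold change was -1.66 (SE 0.42), a 3.15-fold lower level in serum-starved cells, with an unadjusted p of 0.00102. Its edgeR adjusted p of 0.149 missed the threshold, and the adjusted p ran over the alternatives from 0.0138 to 0.987. POLR3G passed with DESeq2 (adjusted p = 0.0138, 1.11% of all genes called), without a low-count filter (edgeR adjusted p = 0.0454, 0.541% called) and without starved replicate 3 (edgeR adjusted p = 0.0458, log2 fold change -1.67). Without FBS replicate 1 the log2 fold change was -1.25, at an edgeR adjusted p of 0.987.

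The paralog POLR3GL was at 1.495, 2.80 and 1.45 CPM in serum-starved libraries and 2.29, 2.62 and 2.21 CPM with FBS, with full overlap (log2 fold change -0.31, SE 0.54, edgeR adjusted p = 0.892). It rested on 106 counts over the 3 starved libraries and 123 over the 3 with FBS. Per length, POLR3G made up 49.4, 38.7 and 53.3% of the summed FPKM of the 2 paralogs without serum, against 77.1, 56.8 and 65.9% with FBS, on average 47.1 ± 7.53% without serum and 66.6 ± 10.2% with FBS (SD, n = 3 each). The 3 starved shares lay below the 3 shares with FBS, and the difference was not tested beyond that. These shares carry no GC and length correction (given below), and the trend it removes differed between the paralogs. In starved replicate 1 that log2 trend was -0.70 for POLR3G and -0.14 for POLR3GL. On the corrected levels, the ratio of POLR3G to POLR3GL in starved replicate 1 lay above that in FBS replicate 2. The separation of the groups by share therefore did not hold under the correction. No 50-base window of the POLR3G transcripts (0 of 4013) occurs in POLR3GL. MBLAC2, which overlaps POLR3G on the other strand, had 11, 1 and 8 counts without serum and 76, 11 and 16 with FBS, so its own highest library was also FBS replicate 1. Of the other 2 subunits of the module, POLR3C averaged 55.2 ± 10.6 CPM without serum and 47.6 ± 3.64 CPM with FBS (log2 fold change 0.21), and POLR3F averaged 3.60 ± 1.48 CPM without serum and 4.89 ± 1.31 CPM with FBS (log2 fold change -0.44).

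**Figure D3:**
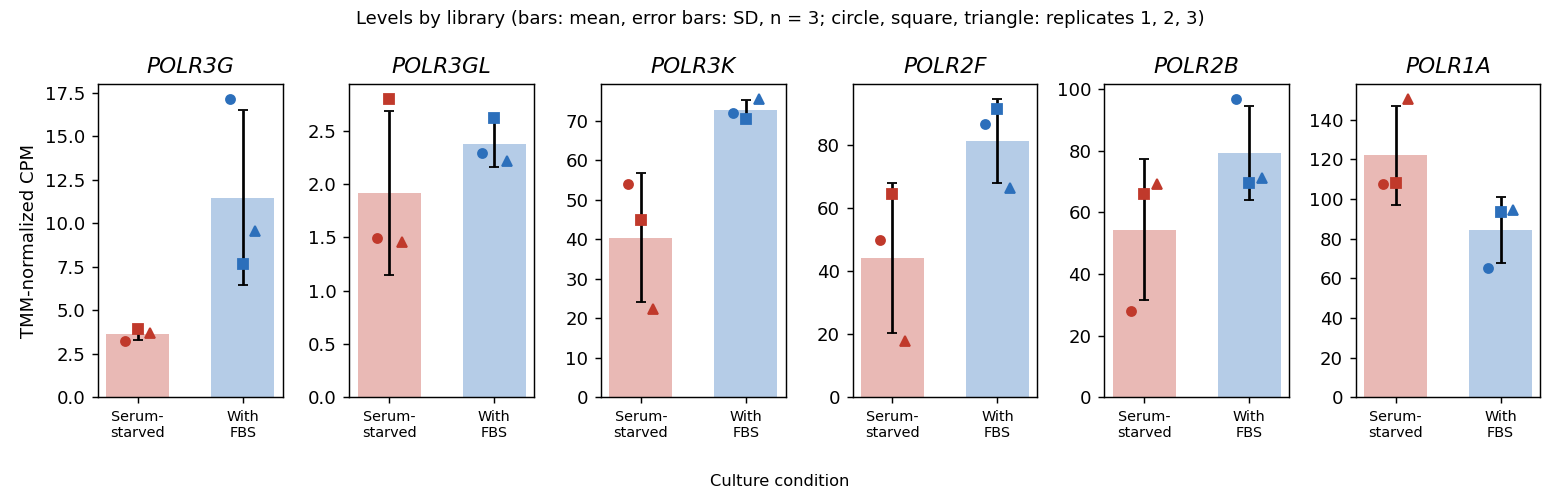
TMM-normalized CPM of POLR3G, its paralog POLR3GL and the 4 other subunits whose groups do not overlap, with bars for the mean, error bars for 1 SD (n = 3) and a point per library, serum-starved left and FBS right. Starved POLR3G libraries sit at 3.26 to 3.95 CPM, all below those with FBS at 7.69 to 17.2 CPM, while the bars of POLR3GL overlap.

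Levels can be compared between genes only per length, here as the deposited FPKM averaged within each group. POLR2L was the most abundant subunit, at 153 ± 105 FPKM without serum and 260.0 ± 36.8 FPKM with FBS (SD, n = 3 each, as below). Next came POLR2E at 64.0 ± 33.1 FPKM without serum and 87.5 ± 14.7 FPKM with FBS and POLR2G at 75.8 ± 34.1 FPKM without serum and 74.6 ± 18.9 FPKM with FBS, and the means of this pair lay within each other's spread in both groups. POLR2C averaged 44.1 ± 10.8 FPKM without serum and 55.1 ± 4.56 FPKM with FBS and POLR2A averaged 47.4 ± 11.5 FPKM without serum and 32.3 ± 14.9 FPKM with FBS, so that POLR2A stood above POLR2C in the starved group and below it with FBS. The 4 tested subunits with the lowest levels all belonged to Pol III in both groups, and their order differed between the groups. POLR3G had the lowest mean of all without serum and the highest of these 4 with FBS, at 0.882 ± 0.0817 FPKM without serum and 2.77 ± 1.18 FPKM with FBS. POLR3GL averaged 1.04 ± 0.412 FPKM without serum and 1.29 ± 0.128 FPKM with FBS, POLR3F 1.20 ± 0.489 FPKM without serum and 1.63 ± 0.414 FPKM with FBS and POLR3B 3.06 ± 1.68 FPKM without serum and 2.75 ± 0.279 FPKM with FBS. Of the largest subunits, POLR2A had a higher level than POLR1A and POLR3A in every library. POLR1A averaged 8.79 ± 1.77 FPKM without serum and 6.08 ± 1.26 FPKM with FBS and POLR3A 7.04 ± 1.86 FPKM without serum and 7.05 ± 0.370 FPKM with FBS, with POLR1A above POLR3A in each of the 3 starved libraries and below it in each of the 3 with FBS. The deposited gene length joins the exons of all annotated transcripts, which for POLR2F (7042 bases) and POLR1D (11210 bases) includes exons that a given transcript may lack, and a longer gene length gives a lower FPKM for the same count.

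Serum-starved replicate 3 was the lowest of all 6 libraries for 13 of 27 subunits and the highest for 6. Starved replicate 1 was the lowest for 9 and the highest for 1, and of the libraries with FBS replicate 2 was the highest for 7 and replicate 3 for 6. On the log2 CPM scale starved replicate 3 lay below the mean of starved replicates 1 and 2 by the most for POLR2L (-2.66), POLR2F (-1.66), POLR2E (-1.54), POLR2J (-1.40) and POLR2G (-1.38), and above it by the most for POLR2K (1.31), POLR3B (1.25) and POLR1B (1.06). Further values without that library were log2 fold changes of -0.17 for POLR1C, -0.14 for POLR2H, 0.06 for POLR3C and -0.81 for POLR3F. Across the 27 subunits the difference from the other starved libraries correlated with transcript GC content at a Pearson r of -0.73 (Spearman rho -0.70) and with the log2 of gene length at 0.39 (rho 0.30). Over all tested genes with a GC value the correlations were -0.53 and 0.34. All points share the same 3 libraries. Other libraries held trends of this kind too. The log2 trend fitted to GC content and gene length for POLR2K was -0.86 in starved replicate 1 and 1.17 in FBS replicate 1. In the same libraries it was -0.70 and 0.61 for POLR3G, -0.60 and 0.41 for POLR2B, and 0.40 and -0.33 for POLR2E. Fits without starved replicate 3 carried no correction for these trends. Of the 7 subunits with a gene length under 2000 bases, replicate 3 was the lowest starved library for 6, with a median difference of -1.23, and of the 20 longer ones it was the lowest for 7 and the highest for 10, with a median difference of 0.16.

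**Figure D4:**
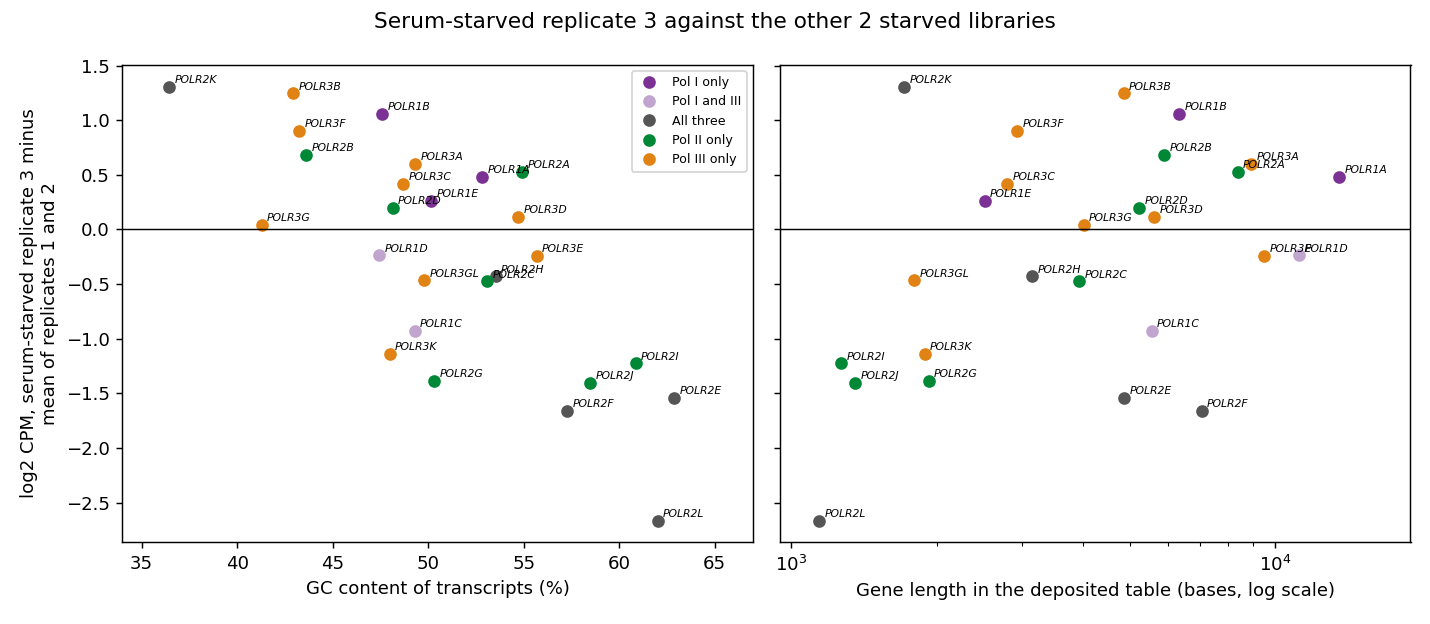
Each point is 1 of 26 subunit genes: the difference in log2 CPM between serum-starved replicate 3 and the mean of replicates 1 and 2 (vertical axis) against transcript GC content (left) and gene length (right, log axis), coloured by polymerase. POLR2K at 36.4% GC lies at 1.31 and POLR2L at 62.0% GC at -2.66.

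Of the 5 groups of subunits, those common to all 3 polymerases had the lowest median in that library. Their median log2 deviation from each gene's mean over the 6 libraries was 0.18, 0.03 and -1.33 in serum-starved libraries and 0.47, 0.54 and 0.37 with FBS. For the genes of Pol III alone it was -0.26, -0.19 and -0.08 in serum-starved libraries and 0.09, 0.18 and 0.06 with FBS, with the 3 starved libraries close together. The median fold change of the 5 common subunits was -0.29 without starved replicate 3, against -0.69 with it. When each library was corrected for GC content and length of the genes, the median of the 5 stayed at -0.69, while its members moved apart. POLR2K went to 0.17 and POLR2F to -1.14, and none of the 27 passed, the lowest edgeR adjusted p being 0.105 for POLR2F and 0.107 for POLR3G. In the corrected fit POLR3G had a log2 fold change of -1.13, POLR3K -0.59, POLR2B -0.37 and POLR1A 0.20, each nearer to 0 than without the correction. Others moved away from 0, among them POLR2E to -0.69, POLR2C to -0.40 and POLR3C to 0.35. In that fit 0.777% of all genes passed. On the corrected levels the groups overlapped for POLR3K and POLR1A. The starved libraries still lay entirely below for POLR2B, POLR2F and POLR3G, and now also for POLR2C, POLR2E and POLR2L. The share of all genes without overlap was not computed on corrected levels.

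**Figure D5:**
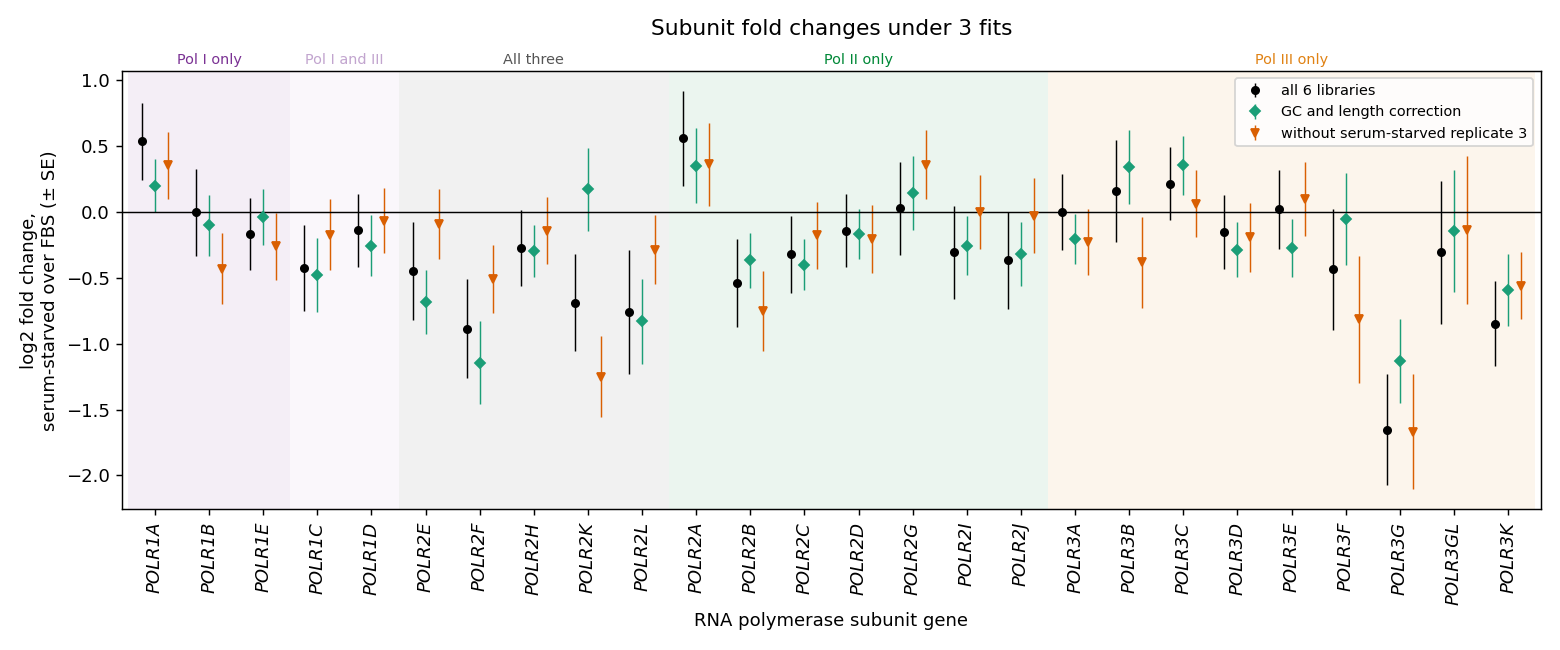
Log2 fold change (serum-starved over FBS) of 26 tested subunits under the fit with all 6 libraries (black), with a GC and length correction (green) and without serum-starved replicate 3 (orange), with bars of 1 SE. POLR3G lies below -1 in all 3 fits, and POLR2K changes between -1.25 without that library and 0.17 with the correction.

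The factors that work with the polymerases gave no call either. Over 10 lists, which hold the 3 Pol I subunits above, the factors of each polymerase and Pol III transcripts, 0 of 115 tested genes passed edgeR's test, against 0.283% of all genes. At an unadjusted p under 0.05 there were 15 (13.0%, against 10.4% of all genes). The log2 fold change was below 0 for 82 of the 115, and for 51.5% of all genes, the share to set beside the counts per list that follow. With DESeq2 1 passed, GTF2A2, and with limma-voom 0. Among 8 Pol I initiation and termination factors, 7 were below 0 and the median log2 fold change was -0.43. RRN3, the factor that couples Pol I to growth signals, was at 15.4, 16.9 and 22.2 CPM in serum-starved libraries and 31.4, 19.5 and 24.4 CPM with FBS, with overlap (log2 fold change -0.47, edgeR adjusted p = 0.654). The log2 fold change was -0.10 for UBTF, which binds the ribosomal gene promoter, and 0.05 for TAF1C and -1.44 for TAF1D, both of the promoter selectivity factor, and TAF1D passed without a low-count filter. TBP, the TATA-binding protein used by all 3 polymerases, averaged 8.73 ± 2.77 CPM without serum and 10.4 ± 0.929 CPM with FBS (log2 fold change -0.25).

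Of 17 tested Pol II general transcription factors, 16 were below 0 (median -0.27), and GTF2A2, the small subunit of TFIIA, came nearest to the threshold of all genes in these lists. GTF2A2 was at 14.5, 18.7 and 17.5 CPM in serum-starved libraries and 50.5, 44.1 and 35.8 CPM with FBS, with no overlap and a narrow spread in both groups (log2 fold change -1.36, SE 0.30, edgeR adjusted p = 0.0676). It passed with DESeq2, without a low-count filter, with the GC and length correction, with or without the replicate block, and without starved replicate 3. GTF2F2, a subunit of TFIIF, also passed without that library. At the other end of that list GTF2H5, a subunit of TFIIH, had a log2 fold change of 0.02, which was -0.34 without starved replicate 3. The 15 TFIID subunits had a median of -0.07, from -1.31 for TAF13 to 0.37 for TAF4, and TAF13 passed without starved replicate 3. The 28 pausing, elongation and termination factors had a median of -0.13, from -1.42 for ELL2, an elongation factor, to 0.76 for CDK13, a CTD kinase. ELL2 passed with the GC and length correction, with or without the replicate block, and without starved replicate 3. Among 12 phosphatases and binders of the CTD, 9 were above 0 (median 0.25). The CTD phosphatase CTDSP2 was at 328, 337 and 353 CPM without serum and 163, 222 and 233 CPM with FBS, without overlap (log2 fold change 0.72, edgeR adjusted p = 0.397), and RPAP2 had the lowest fold change of the list (-0.69).

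Of 13 Pol III initiation factors and regulators, 9 were below 0 (median -0.12). MAF1, the repressor that binds Pol III when growth signals are low, was at 1138, 765 and 538 CPM in serum-starved libraries and 633, 930.5 and 977 CPM with FBS, with the highest and the lowest library both in the starved group (log2 fold change -0.06). BRF1, a subunit of the initiation factor TFIIIB, averaged 51.0 ± 10.9 CPM without serum and 48.7 ± 5.57 CPM with FBS (log2 fold change 0.07). The list ran from -1.05 for SSB, the La protein that binds new Pol III transcripts, to 0.37 for GTF3C1, the largest subunit of TFIIIC. The 15 factors of polymerase assembly and import had a median of -0.31 with 13 below 0, from -1.20 for the prefoldin subunit PFDN6 to 0.36 for RPAP1, and PFDN6 passed with the replicate block and the GC and length correction together. In mitochondria, POLRMT, the single-subunit RNA polymerase, averaged 187 ± 69.4 CPM without serum and 192 ± 58.9 CPM with FBS (log2 fold change -0.04), and the list of 6 had a median of -0.28, from -1.10 for MTERF1 to 0.17 for TFB1M. Of 10 transcripts made by Pol III, 7 had no count in any library, and only RN7SL2 could be tested. RN7SL2 was at 1.36, 0.384 and 0.0440 CPM without serum and 0.457, 1.85 and 2.01 CPM with FBS. The value of starved replicate 3 lay under the level of 3 counts. Whether the libraries captured such short RNAs was not tested, so these values are no measure of Pol III output.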

How the data were processed

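The authors' deposited table gave raw counts and FPKM per gene, with lengths and biotypes per the file headers. The build GRCh38, STAR 2.6.1 and DESeq2 are named per the submitters' processing notes. No source used here names the counting tool or its strand setting. All 58735 gene identifiers matched GENCODE 29. Per the labels' protocols, DNase-treated RNA went into NEBNext Ultra II libraries.

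Deposited counts were filtered with edgeR's filterByExpr (minimum count 10, minimum total 15), which left 13772 genes, scaled with TMM and compared with edgeR 4.0.16 (quasi-likelihood, robust) in R 4.3.3, with Benjamini-Hochberg adjustment over all genes tested and a threshold of 0.05. An SE is the size of the log2 fold change over the square root of F. The deposited FPKM values carry a between-library scaling by DESeq2 size factors. They gave levels per length and, as log2(FPKM + 1) and log2(FPKM + 0.1), an alternative in limma 3.58.1. Other alternatives were RLE and total-count scaling, other filters, DESeq2 1.42.0, limma-voom, a replicate block, a GC and length correction (splines with 5 degrees of freedom as offsets) and each library left out. The tests were checked on simulated data without GC or length trends between libraries, so that check does not cover such trends. Transcript GC content came from GENCODE 29 sequences. Of the tested subunits, 1 enters the counts and medians over subunits but is not named, plotted or reported here, and the others are all named; of each factor list, the genes with the largest and smallest fold change are named, and TBP, MAF1, BRF1, RRN3, UBTF and POLRMT always. CD3EAP, ZNRD1, GTF2F2 and overlapping or unlisted genes are named besides. The members and lists were chosen with earlier results of these data known. No library was a duplicate of another.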

Additional observations from a re-analysis of the deposited data

How the results depend on the processing

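Of 26 subunits, 18 kept their direction over 19 alternatives to the fit described, 15 of them below 0, and 8 changed sign in at least 1. The number of subunits that passed was 0 in the fit described and 1 without a low-count filter (POLR3G), 1 with DESeq2 (POLR3G), 1 with the replicate block and GC and length correction together (POLR2F, edgeR adjusted p = 0.0269), and 0 to 2 when single libraries were left out. Deviations of same-numbered libraries from their group means correlated at -0.257, 0.097 and -0.0818. The labels do not say whether the replicate numbers pair the libraries. These correlations cannot decide it, because the deviations within a group are bound to sum to 0. The replicate block alone gave 0 subunits and 43 genes. Over all genes the count was 39, and 25 with total counts alone, 127 without a low-count filter, 154 with DESeq2, 107 with the GC and length correction, 145 (1.05%) with that correction and the replicate block, 4 to 257 when single libraries were left out and 13 at an adjusted p under 0.01. In limma it was 22 on log2(FPKM + 1), 19 on log2(FPKM + 0.1) and 0 on log2(FPKM + 1) without a filter.

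The median over all subunits was -0.18 on log2(FPKM + 1), with or without a filter, and -0.27 to -0.15 when libraries were left out. The ranges on leaving out libraries were -0.26 to 0.30 for Pol I alone by the naming rule and -0.94 to -0.64 for its subunits under older symbols. They were -0.29 to -0.028 for Pol II alone and -0.21 to -0.029 for Pol III alone. The median of Pol III alone was -0.24 with the GC and length correction, with or without the replicate block.

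Signs turned as follows, and the cause was not tested. With total counts alone POLR1B was 0.074, POLR2G -0.013, POLR3A 0.042 and POLR3E -0.013. POLR3A was 0.0012 with RLE and 0.0034 with the stricter filter. With limma-voom POLR2G was -0.073 and POLR3E -0.0055, and with the replicate block POLR2G was -0.053. On log2(FPKM + 1) POLR2G was -0.072, with or without a filter, and on log2(FPKM + 0.1) -0.075. With the GC and length correction POLR2K was 0.17, POLR3E -0.27, TAF1C -0.14 and BRF1 -0.31, and with the replicate block added 0.13, -0.27, -0.14 and -0.31. Leaving out libraries gave -0.43 to 0.30 for POLR1B, -0.24 to 0.014 for POLR2D, -0.20 to 0.36 for POLR2G, -0.67 to 0.0024 for POLR2I, -0.23 to 0.18 for POLR3A, -0.38 to 0.45 for POLR3B, -0.17 to 0.12 for POLR3E, -0.25 to 0.0071 for UBTF, -0.15 to 0.25 for TAF1C, -0.34 to 0.68 for GTF2H5, -0.094 to 0.20 for BRF1, -0.36 to 0.16 for MAF1 and -0.37 to 0.19 for POLRMT. The values of POLR3GL and the POLR2J relatives rest on few counts.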
